A study of Homo sapiens with 12 samples.

Results

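The nuclear genes that encode subunits of the mitochondrial respiratory chain and the ATP synthase were followed over cell lines and cell populations of ALCL (anaplastic large cell lymphoma, a malignancy of T cells). Genes were taken by symbol, from the families NDUFA, NDUFB, NDUFC, NDUFS, NDUFV, UQCR, COX4 to COX8, ATP5F1, ATP5M and ATP5P together with SDHA, SDHB, SDHC, SDHD and CYC1, where a probe set carried 1 gene symbol. Pseudogenes, NDUFAF assembly factors and 1 long non-coding RNA were left out. This gave 79 of the 18417 named genes, of which 34 belong to complex I, 3 to complex II, 8 to complex III, 17 to complex IV and 17 to complex V. ATP5F1E, NDUFC2, NDUFS5 and UQCRHL lay only on probe sets with several symbols and were not analysed here. The set includes COX7A2L, a relative of COX7A2 that helps to join complexes into supercomplexes, since its symbol falls under the rule.

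The samples were side population (SP) cells, which exclude the DNA dye Hoechst, and main population (MP) cells, which keep it, sorted by flow cytometry from log-phase cultures. SUDHL-1 contributed 3 SP and 3 MP arrays, and SUPM2, Karpas299 and DEL contributed 1 SP and 1 MP array each, 12 Affymetrix arrays in all. All 4 are established ALCL lines, known to carry the NPM1-ALK fusion, so that a line here is 1 culture model and not a sample of patients. Values are log2 signals per probe set, and a difference of 1 is 2-fold. Triplicate sorting is stated for the series, but not whether each sort had its own culture. The p-values therefore cover no more than the variation among these arrays, some or all of which may be technical.

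The 9 ALCL markers measured averaged 7.30 to 7.49 on the SUDHL-1 arrays and 8.43 to 9.60 on those of the other lines, and 8 of the 9 had a lower fitted level in SUDHL-1. TNFRSF8 (CD30), the defining surface marker of ALCL, had 6.80 to 7.31 on the SUDHL-1 arrays and 7.63 to 10.51 on those of the other lines. IL2RA, the interleukin-2 receptor chain, had 10.91 to 12.21 on the 12 arrays and was the 1 marker higher in SUDHL-1. CD4, a T-cell surface protein, had 3.45 to 4.15 on the SUDHL-1 arrays and 4.22 to 9.66 on those of the other lines. Marker means were 4.07 to 5.19 for B cells, 4.01 to 5.48 for myeloid cells and 4.0 to 5.04 for stroma and epithelium. Single members stood above these means outside SUDHL-1. There the myeloid marker CSF1R had 7.45 to 8.59 and the epithelial marker KRT18 7.23 to 7.78. The B-cell marker PAX5 had 6.65 and 6.78 on the SP and MP arrays of Karpas299. The remaining markers of these lists reached at most 6.31. ALK was not analysed here. The median over all probe sets of an array was 4.83 to 5.0 for SUDHL-1 but 5.24 to 5.35 for the remaining arrays. Precision is limited by how few arrays there are.

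Complex I takes electrons from NADH, and complex II, succinate dehydrogenase, takes them from succinate and is at the same time an enzyme of the tricarboxylic acid (TCA) cycle. Complex III passes them to cytochrome c, complex IV hands them to oxygen, and complex V, the ATP synthase, uses the proton gradient that the pumping complexes build. Complexes I, III, IV and V mix nuclear subunits with a few encoded in mitochondrial DNA, while complex II is wholly nuclear. Several nuclear subunits of complexes IV and V come in isoforms with different tissue ranges, and the transcription factors NRF1, GABP (of the ETS family) and YY1 are known activators of many of these genes.

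The promoters of 8 of the genes are printed here because these genes carried line differences described further on: NDUFA7, COX7A2L, UQCRC1 and UQCR11 were called lower in SUDHL-1 and SDHA and NDUFA13 higher there, while UQCRC2 and NDUFB11 separated the remaining lines. Each run is the 150 bases before the annotated start on the gene's own strand, 5′ to 3′, from RefSeq (GRCh38.p14). Capitals mark matches, on either strand, to the NRF1 motif (GCGCA, then N, then GCGC) or to CCGGAAG (the core ETS motif bound by GABP). The windows are chr19:8321376-8321525 (minus strand) for NDUFA7, chr2:42361218-42361367 (minus) for COX7A2L, chr3:48609647-48609796 (minus) for UQCRC1 and chr19:1605463-1605612 (minus) for UQCR11. They are chr5:218170-218319 (plus) for SDHA, chr19:19516075-19516224 (plus) for NDUFA13, chr16:21953211-21953360 (plus) for UQCRC2 and chrX:47144703-47144852 (minus) for NDUFB11.
NDUFA7: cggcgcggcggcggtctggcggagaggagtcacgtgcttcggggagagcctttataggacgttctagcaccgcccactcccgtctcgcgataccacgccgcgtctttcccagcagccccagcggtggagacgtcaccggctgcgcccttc
COX7A2L: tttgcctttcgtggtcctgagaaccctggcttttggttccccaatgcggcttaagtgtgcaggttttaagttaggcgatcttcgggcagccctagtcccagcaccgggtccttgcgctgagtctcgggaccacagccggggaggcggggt
UQCRC1: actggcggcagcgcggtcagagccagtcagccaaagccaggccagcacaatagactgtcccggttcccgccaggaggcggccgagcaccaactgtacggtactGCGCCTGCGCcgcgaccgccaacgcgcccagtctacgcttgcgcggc
UQCR11: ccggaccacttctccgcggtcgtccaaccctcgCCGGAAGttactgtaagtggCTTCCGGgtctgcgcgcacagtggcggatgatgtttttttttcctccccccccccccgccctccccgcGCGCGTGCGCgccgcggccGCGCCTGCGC
SDHA: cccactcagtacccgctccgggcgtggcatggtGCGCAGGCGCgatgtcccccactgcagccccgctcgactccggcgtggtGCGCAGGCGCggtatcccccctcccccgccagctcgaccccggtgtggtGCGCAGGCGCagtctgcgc
NDUFA13: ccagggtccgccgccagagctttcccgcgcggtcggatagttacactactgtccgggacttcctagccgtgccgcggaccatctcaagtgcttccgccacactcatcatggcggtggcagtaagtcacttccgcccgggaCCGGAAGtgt
UQCRC2: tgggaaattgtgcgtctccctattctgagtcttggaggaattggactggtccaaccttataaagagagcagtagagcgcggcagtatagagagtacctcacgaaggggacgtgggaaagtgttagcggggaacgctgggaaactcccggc
NDUFB11: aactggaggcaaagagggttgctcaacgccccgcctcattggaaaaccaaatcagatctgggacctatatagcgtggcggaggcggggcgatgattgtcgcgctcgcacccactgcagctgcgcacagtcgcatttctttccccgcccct
SDHA held 3 NRF1 matches in this window and UQCR11 held 2 NRF1 and 2 ETS matches, while NDUFA7, COX7A2L, UQCRC2 and NDUFB11 held none of these letters.

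A RefSeq promoter of 300 bases around the start was matched for 66 of the 79 genes. The NRF1 motif lay in 16 of them (24.2%), against 8.58% of 15843 protein-coding promoters of the same length. The ETS motif lay in 19 (28.8%, against 14.2%), and AAGATGGC, a YY1 motif, in 10 (15.2%, against 3.91%). Both strands were searched, and a match is a description of sequence, not of binding. The ETS motif ends and the YY1 motif begins with AAG, so a stretch of sequence can count for both.

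No gene, in this set or outside it, was called between SP and MP cells of SUDHL-1. With 3 arrays each, that does not show that the populations are alike. With limma on the 6 arrays, 0 of the 79 genes were called higher or lower (adjusted p under 0.05), against 0% of all 18417 genes, and 0 of the 79 against 3.13% of all genes had an unadjusted p under 0.05. Differences (SP minus MP) ran between -0.64 and 0.41 with a median of -0.02. The mean was higher in SP cells for 34 of 79 genes, against 49.9% of all genes. In sorted bulk samples, fewer cells with a transcript and less of it per cell cannot be told apart.

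SP and MP arrays of SUDHL-1 did not overlap for 3 genes (7.16% of all genes did not), 2 with SP above (3.74% of all genes) and 1 with SP below (3.42%). COX7A2L had 6.86, 6.90 and 7.07 on SP arrays and 6.78, 6.74 and 6.51 on MP arrays, a difference of 0.27 (SE 0.15). NDUFV1, which forms the NADH-binding tip of complex I, had 9.40, 9.35 and 9.44 on SP arrays and 9.01, 9.31 and 9.31 on MP arrays. UQCRC1, a core protein of complex III, ran the other way, with 5.82, 6.00 and 6.23 on SP arrays and 6.29, 6.33 and 6.28 on MP arrays, a difference of -0.28 (SE 0.15). None of the 3 passed the test (limma adjusted p = 1.00 for each). COX7B, a small complex IV subunit, had the widest mean difference (-0.64) with groups that overlapped broadly, at 8.32 ± 0.94 on SP and 8.96 ± 0.92 on MP arrays (SD, n = 3 each).

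Within SUDHL-1, 1 array stood apart for most of the genes. MP array 3 was the lowest of the 6 for 54 of 79 genes (68.4%), against 22.4% of all genes. It lay below the mean of the other MP arrays for 75 of 79 (57.4% of all genes), by a median of 0.53 in size. The mean of complex I was 9.22, 9.55 and 9.42 on SP arrays 1 to 3 and 9.55, 9.69 and 9.02 on MP arrays 1 to 3. The mean of complex III was 8.36, 8.47 and 8.59 on SP arrays and 8.56, 8.79 and 8.03 on MP arrays. In both complexes the SP values lay inside the MP range, with MP array 2 at the top and MP array 3 at the bottom.

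Other gene groups moved with that array to differing degrees. It was the lowest of the 6 for 50 of 73 mitochondrial ribosomal protein genes and 45 of 66 cytosolic ones, lists picked after the values were seen. It was the lowest for 22 of 46 assembly factors of the respiratory chain and for 0 of 17 TCA cycle enzymes. Without MP array 3, the median SP minus MP difference of the 79 genes was -0.19, with 10 of 79 higher in SP (47.1% of all genes). Without MP array 2 it was 0.09, with 57 of 79 higher (54.8% of all genes), so the sign of this median followed single arrays. SP array 1 lay below the mean of the other SP arrays for 67 of 79 genes, against 50.0% of all genes. The part of RNA quality or amplification in these shifts was not tested.

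**Figure D1:**
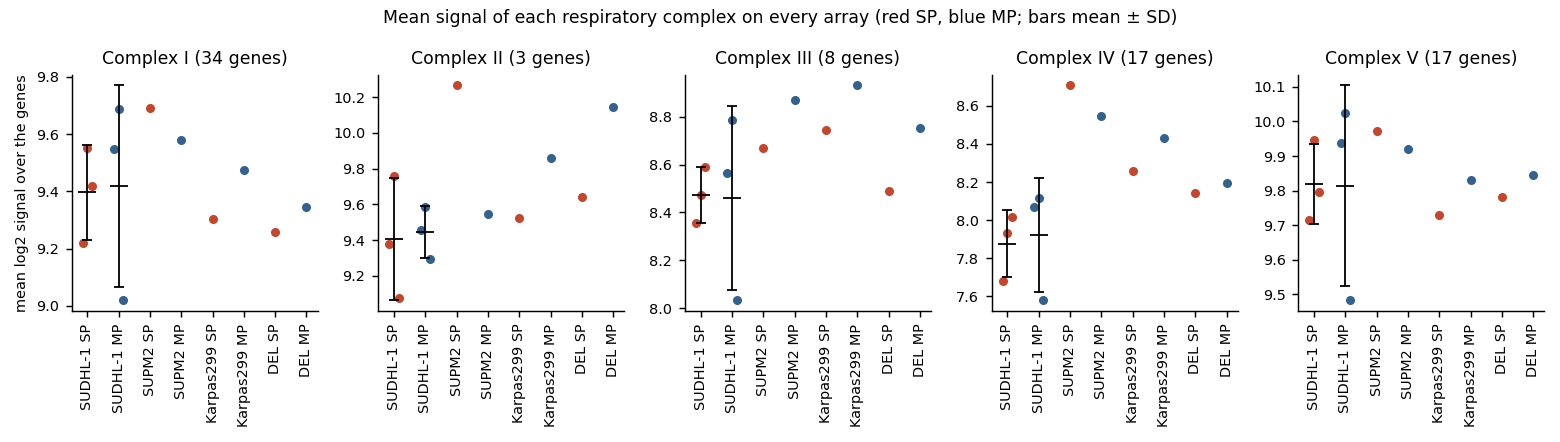
Mean log2 signal (y axis) of the genes of each complex on every array, SP in red and MP in blue, for the 4 lines (x axis), with mean ± SD over the 3 SUDHL-1 arrays of a population. In complexes I, III, IV and V the MP arrays of SUDHL-1 spread more widely than its SP arrays, with 1 MP array at the bottom.

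Over the 4 lines, with 1 SP minus MP difference per line, limma called 0 of 79 genes (0% of all genes), and 0 of the 79 had an unadjusted p under 0.05 (4.91% of all genes did). The median was -0.05 and 29 of 79 genes lay above 0, against a median of 0.02 and 55.6% above 0 over all genes. By complex, the genes with the higher mean in SP cells were 12 of 34 in complex I, 2 of 3 in complex II, 1 of 8 in complex III, 7 of 17 in complex IV and 7 of 17 in complex V. The smallest p-values belonged to NDUFA7, a small accessory subunit of complex I, at 0.40 (SE 0.17), and NDUFA8, another accessory subunit, at -0.25 (SE 0.11), both with a limma adjusted p of 0.918. The SP minus MP difference also did not differ by the test between SUDHL-1 and the other lines. The interaction was called for 0 of 79 genes (0% of all genes), with 0 of 79 against 3.59% of all genes at an unadjusted p under 0.05.

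A group of 12 of the 79 genes (15.2%) had the lower mean in SP cells in each of the 4 lines, against 5.65% of all genes, and 0 had the higher mean in each, against 8.09%. The 12 were NDUFA8, NDUFA11, NDUFA13 and NDUFS1 of complex I, SDHA of complex II, UQCRQ of complex III, COX5A, COX5B, COX6A1 and COX8A of complex IV, and ATP5F1D and ATP5MC1 of complex V. The differences were small: NDUFA8 stood at -0.17, -0.41, -0.25 and -0.14 in SUDHL-1, SUPM2, Karpas299 and DEL. SDHA, the flavoprotein of succinate dehydrogenase, stood at -0.16, -0.04, -0.69 and -0.33 in the same order. The difference of ATP5MC1, a membrane-ring subunit of the ATP synthase, was close to 0 in SUDHL-1 and DEL (both -0.00) and lay at -0.38 in SUPM2 and -0.36 in Karpas299. None of the 12 passed the test, and leaving out 1 SUDHL-1 array at a time gave 5 to 15 such genes. The count was 5 without SP array 1, 6 without MP array 2 and 15 without MP array 3.

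Lines with 1 array of each population give values and no test. The median SP minus MP difference was 0.10 in SUPM2, with 51 of 79 genes higher in SP, -0.12 in Karpas299, with 22 of 79, and -0.09 in DEL, with 27 of 79. Over all genes these medians were 0.07, -0.01 and 0.02, with 57.8%, 49.2% and 52.7% of genes higher in SP. No gene of the set reached a 2-fold difference in Karpas299, where 2% of all genes were 2-fold higher and 1.19% lower, or in DEL, where 1.07% were higher and 1.37% lower. In SUPM2, 3 genes were 2-fold higher in SP (3.3% of all genes) and 3 were 2-fold lower (3.29%).

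The 3 higher ones in SUPM2 were SDHC, a membrane anchor of complex II (11.36 on the SP and 9.98 on the MP array), NDUFB5, an accessory subunit of complex I (10.10 and 8.99), and NDUFS4, a complex I subunit whose loss causes Leigh syndrome in humans (10.66 and 9.63). A dim second probe set of NDUFS4 ran the other way in SUPM2, at 2.72 on the SP and 3.67 on the MP array. The 3 lower ones were NDUFB2, an accessory subunit of complex I (9.61 on the SP and 11.29 on the MP array), UQCRB, a small subunit of complex III (4.07 and 5.34), and ATP5MF, a membrane subunit of the ATP synthase (11.18 and 12.18). None of the 6 kept its direction in all of the other 3 lines. NDUFB5 kept it in SUDHL-1 and Karpas299 (0.15 and 0.05), ATP5MF in Karpas299 and DEL (-0.29 and -0.23), and NDUFS4 (0.23) and UQCRB (-0.14) in DEL alone. On the probe sets used, SDHC and NDUFB2 ran the other way in all 3. SDHC was at 1.38 in SUPM2 but -0.15, -0.53 and -0.61 in SUDHL-1, Karpas299 and DEL. The other probe set of SDHC did not turn in DEL, with 8.01 on the SP and 7.99 on the MP array. NDUFB2, at -1.68 in SUPM2, lay between 0.01 and 0.09 in the other lines. NDUFA7 lay just short of a 2-fold difference in SUPM2, at 0.91.

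**Figure D2:**
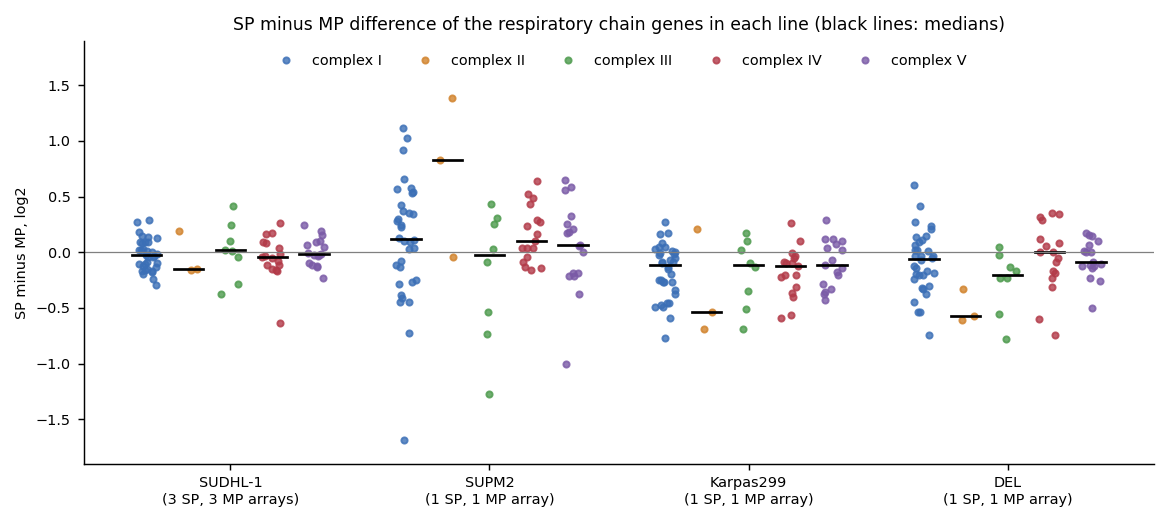
SP minus MP difference in log2 (y axis) of each gene, coloured by complex, in the 4 lines (x axis), with black lines at the medians. SUPM2 spreads most widely, from -1.68 to 1.38, and the SUDHL-1 values, means over 3 arrays each, lie between -0.64 and 0.41.

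SUDHL-1 was set against the mean of the other lines in 1 limma fit of line and population to the 12 arrays. The fit called 50 of the 79 genes, near the background of 65.6% of all genes. Of these, 23 were called higher in SUDHL-1 and 27 lower, against 16.4% and 49.2% of all genes. The median was -0.05, against -0.33 over all genes, so that the median of the set lay above that of all genes on the deposited scale. The counts and the backgrounds changed with the scaling. After quantile normalization 25 genes were called higher and 27 lower (23.2% and 28.4% of all genes), with medians of -0.07 for the set and -0.05 over all genes. With each array centred on its median, 37 were called higher and 14 lower (34.6% and 19.6%), with medians of 0.41 and 0.13. By complex, centring gave 16 higher and 3 lower in complex I, 1 and 1 in II, 4 and 2 in III, 7 and 6 in IV and 9 and 2 in V. In these 3 scalings 23 genes were called higher and 14 were called lower each time. The line difference cannot be told apart from a difference in how the SUDHL-1 arrays were made or normalized. On the deposited scale, markers of B cells, myeloid cells and stroma and epithelium lay lower in SUDHL-1 for 5 of 5, 4 of 5 and 8 of 8 genes, with 2, 3 and 7 called. The ALCL markers lay lower for 8 of 9 genes, with 7 called lower, 1 called higher and a median of -1.71. Their part in the differences was not tested.

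The most strongly lowered genes in SUDHL-1 were 3, 1 each in complexes I, III and IV. NDUFA7 had a lowest, median and highest signal of 6.52, 6.95 and 7.80 on the 6 SUDHL-1 arrays and 9.89, 10.48 and 11.67 on the other 6 arrays, 12.03-fold lower (log2 -3.59, SE 0.20, limma adjusted p = 1.93e-07). COX7A2L had 6.51, 6.82 and 7.07 in SUDHL-1 and 9.23, 9.63 and 10.37 in the other lines, 7.47-fold lower (log2 -2.90, SE 0.14, limma adjusted p = 9.17e-08). UQCRC1 had 5.82, 6.26 and 6.33 in SUDHL-1 and 8.30, 8.77 and 9.57 in the other lines, 6.28-fold lower (log2 -2.65, SE 0.14, limma adjusted p = 1.25e-07). For each, the gap between the groups was wider than the spread within either group. These differences kept a limma adjusted p under 0.05 in each of the 17 alternatives run.

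**Figure D3:**
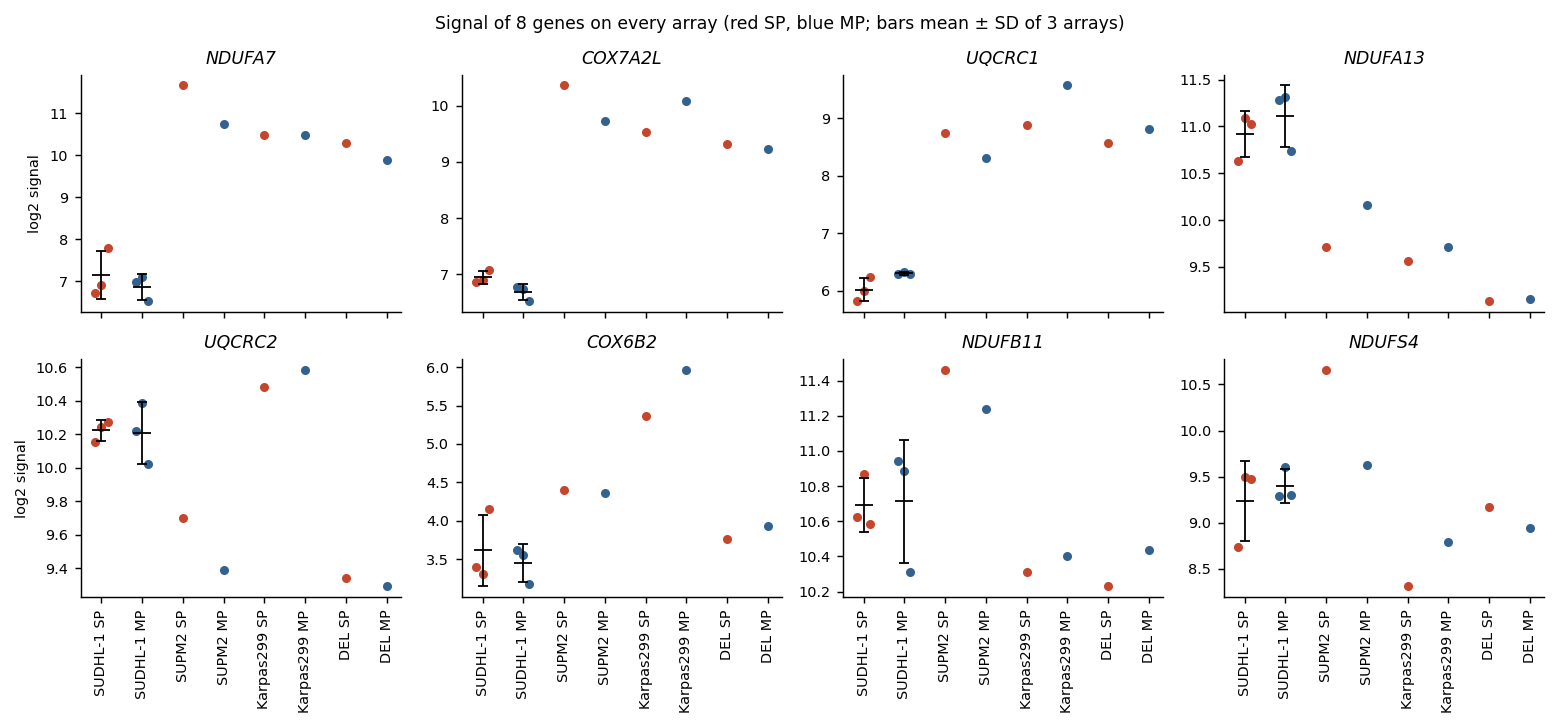
Log2 signal (y axis, its own range in each panel) of 8 genes on every array, SP in red and MP in blue, by line and population (x axis), with mean ± SD over the 3 SUDHL-1 arrays of a population. NDUFA7, COX7A2L and UQCRC1 lie low and NDUFA13 lies high on the 6 SUDHL-1 arrays, UQCRC2 is lowest in DEL and COX6B2 highest in Karpas299, and NDUFB11 and NDUFS4 are highest in SUPM2.

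In complex I, 10 of 34 genes were called higher and 10 lower in SUDHL-1, where 16.4% of all genes were called higher and 49.2% lower. NDUFA13, also known as GRIM-19, an accessory subunit needed for assembly, had 10.63, 11.06 and 11.32 (lowest, median, highest) in SUDHL-1 and 9.13, 9.64 and 10.16 in the other lines, with a difference of 1.44 (SE 0.13). The accessory subunits NDUFA9 (1.07), NDUFA8 (1.02) and NDUFB8 (0.94) and NDUFS6 (0.92), a zinc-binding subunit, were also called higher. Beside NDUFA7, NDUFB4 (-0.90) and NDUFV3 (-0.89) were called lower in each of the 3 scalings. The 2 probe sets of NDUFB4 carried identical values, so they count as 1 measurement.

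Complex II split between its subunits. SDHA had 9.37, 9.63 and 9.78 in SUDHL-1 and 8.40, 8.93 and 9.09 in the other lines, and was called higher by 0.80 (SE 0.11). SDHC, a membrane anchor, had 8.30, 8.56 and 9.11 in SUDHL-1 and 9.69, 10.13 and 11.36 in the other lines, and was called lower (log2 -1.68, SE 0.26). Neither pair of ranges overlapped, as for 32.9% of the 79 genes and 36.6% of all genes. The other probe set of SDHC gave -1.14 for the same contrast. SDHD, the second anchor, did not pass the test at -0.34. Its other probe set gave -0.71, and the mean of both was called lower at -0.53 (limma adjusted p = 0.0478). Probe set numbers of the 79 genes mostly follow chromosome order. By number, the SDHC probe set used fell among those of chromosome 17 genes and the SDHD one beside those of chromosome 1 genes. SDHC lies on chromosome 1 and SDHD on chromosome 11. Whether these probe sets read the genes themselves or related sequences elsewhere was not tested. SDHB was not analysed here.

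In complex III, 4 of 8 genes were called higher and 3 lower (16.4% and 49.2% of all genes). UQCR11, a small subunit, joined UQCRC1 below, with 7.75, 8.69 and 9.31 in SUDHL-1 and 9.70, 10.12 and 10.90 in the other lines (log2 -1.70, SE 0.23). CYC1, the cytochrome c1 heme protein, was called lower at -0.91, a call lost with centred arrays (-0.45, limma adjusted p = 0.0823). UQCRB (1.13), UQCRH, the hinge protein (0.95), UQCRQ (0.79) and the second core protein UQCRC2 (0.42) were called higher. The mean of UQCRC2 in SUDHL-1 (10.22) lay above DEL (9.32) and SUPM2 (9.55) but below Karpas299 (10.53), so it was the mean of the 3 lines that set its direction.

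Complex IV had 3 of 17 genes called higher and 8 lower, shares near those of all genes (16.4% and 49.2%). Among isoforms, COX7A2, the widely expressed form, had 10.78, 11.58 and 11.66 in SUDHL-1 and 9.85, 10.18 and 11.19 in the other lines (log2 1.03, SE 0.17), while COX7A1, the heart and muscle form, had 4.28 to 5.94 on the 12 arrays and was called lower at -0.95. COX6B1, the widely expressed form, had 11.40, 11.54 and 11.72 in SUDHL-1 and 10.64, 10.81 and 10.90 in the other lines (log2 0.76, SE 0.09). COX6B2, the testis form, was called lower at -1.10, on signals of 3.17 to 5.96. COX4I1, the main form of subunit 4, was called higher at 0.37. COX4I2, the form known from lung, was called lower at -0.45, on signals of 4.27 to 5.52. Markers of B cells, myeloid cells and stroma and epithelium averaged near that level. They also lay lower in SUDHL-1, for 5 of 5, 4 of 5 and 8 of 8 genes. COX7B2 and COX8C, dimmer still, stood at 0.20 and -0.05. The part of low signal in these calls was not tested. COX4I2 stood at 0.013 when arrays were centred, so its direction flipped with the scaling.

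Other small subunits of complex IV were lower in SUDHL-1. COX6A1, the liver-type form of subunit 6A, had 9.49, 10.06 and 10.33 in SUDHL-1 and 11.09, 11.24 and 11.60 in the other lines (log2 -1.35, SE 0.16). COX8A was called lower at -1.28, and COX7C at -0.92. COX6A2, the muscle form of subunit 6A, differed by -0.04 and did not pass the test. COX7B2 and COX8C, testis forms, lay in the lowest 25% of mean signal together with COX6B2, and neither passed the test. The remaining 76 genes lay above that mark.

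Complex V had 5 of 17 genes called higher and 5 lower (16.4% and 49.2% of all genes). Its membrane ring is built from 1 protein that 3 genes encode with different targeting peptides, and these 3 did not move together. ATP5MC1 had 11.15, 11.53 and 11.65 in SUDHL-1 and 10.05, 10.80 and 11.17 in the other lines (log2 0.81, SE 0.12), and ATP5MC3 was called higher at 0.74. ATP5MC2 had 8.35, 8.74 and 9.06 in SUDHL-1 and 9.60, 9.79 and 10.02 in the other lines (log2 -1.12, SE 0.13). ATP5F1D, the delta subunit of the rotor stalk, was called lower at -1.19. ATP5MC1, ATP5MC3, ATP5MC2 and ATP5F1D were each called in the same direction in the 3 scalings.

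**Figure D4:**
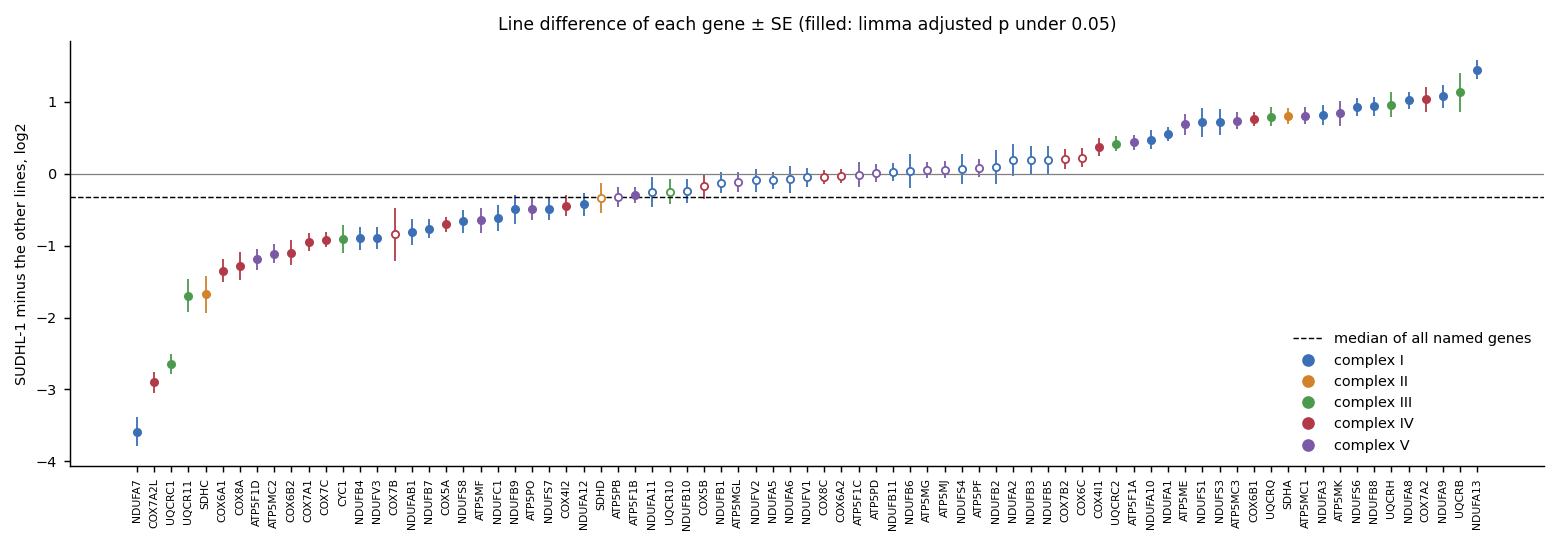
SUDHL-1 minus the mean of the other lines in log2 (y axis, ± SE) for each of the 79 genes in order of size (x axis), coloured by complex, filled where the limma adjusted p was under 0.05. The dashed line is the median of all named genes at -0.33; each complex has genes called on both sides of 0.

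SUPM2 was set against DEL and Karpas299. In SUPM2 10 of 79 genes were called higher and 1 lower, against 4.11% and 6.97% of all genes, with a median of 0.21 and 56 of 79 above 0 (0.06 and 58.1% over all genes). The median ran from 0.09 to 0.29 when 1 array of these lines was left out. SUPM2 had the highest mean of these 3 lines for 47 of 79 genes (59.5%, against 44.1% of all genes) and for 14 of 17 in complex IV. In complex IV 15 of 17 genes lay above 0 with a median of 0.38, in complex I 23 of 34 with 0.31, in complex V 12 of 17 with 0.18, and in complex III 4 of 8 with -0.07.

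Of the 10 genes called higher in SUPM2, 6 belong to complex I. NDUFB11, an X-linked accessory subunit of complex I, had 11.46 and 11.24 on the SP and MP arrays of SUPM2, against 10.31 and 10.40 in Karpas299 and 10.23 and 10.44 in DEL (log2 1.00, SE 0.19, limma adjusted p = 0.00716). NDUFC1, a membrane subunit, had 9.96 and 10.69 in SUPM2, against 9.0 and 8.95 in Karpas299 and 9.16 and 9.21 in DEL (log2 1.24, SE 0.28, limma adjusted p = 0.0154). NDUFS4 had 10.66 and 9.63 in SUPM2, against 8.31 and 8.79 in Karpas299 and 9.17 and 8.94 in DEL (log2 1.34, SE 0.31, limma adjusted p = 0.0172). Both SUPM2 arrays lay above the 4 arrays of the other lines for each of the 3, which were picked for being called. The share of all genes with this order was not counted. A second, dim probe set of NDUFS4 gave 0.44 for the same contrast.

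NDUFA1 (0.58), NDUFA3 (0.78) and NDUFS7 (0.91) of complex I, COX7A1 (0.80), COX7A2 (1.02) and COX7C (0.69) of complex IV and ATP5PD (0.73), of the stalk of complex V, were the other genes called higher. ATP5MC1 was called lower at -0.66. The SE and p-values of the SUPM2, Karpas299 and DEL contrasts take their spread from all 12 arrays, 6 of them from SUDHL-1. The number called depended on the arrays in the fit: leaving out 1 array of these lines at a time left 3 to 6 called higher and 0 lower, and a fit of these 6 arrays alone left 5 and 0. NDUFB11 and NDUFC1 were called in 11 of 12 alternatives each. Myeloid markers also lay higher in SUPM2 for 5 of 5 genes (median 0.47, 0 called), with CD14, a monocyte receptor, at 4.49 on its SP and 6.31 on its MP array. Their part in these differences was not tested.

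The TCA cycle enzymes and the genes for mitochondrial genome expression and biogenesis had medians below 0 in SUPM2. Of 17 TCA cycle enzymes, 15 lay lower in SUPM2 than in DEL and Karpas299, with a median of -0.44, and 3 were called lower (6.97% of all genes were). The mean of the list was 8.11 on the SP and 7.66 on the MP array of SUPM2, against 8.29 and 8.31 in Karpas299 and 8.33 and 8.45 in DEL, so the MP array stood further off. The 3 called were PDHA1 (-0.73), SUCLA2, of succinyl-CoA synthetase (-0.82), and IDH3A, of isocitrate dehydrogenase (-1.10). PDHA1 is a subunit of pyruvate dehydrogenase, which feeds the cycle and was counted in this list. Of 23 genes for mitochondrial genome expression and biogenesis, 7 were called lower and 1 higher (6.97% and 4.11% of all genes), with a median of -0.30. Those lower included MTERF3, which binds mitochondrial DNA (-1.67), LRPPRC, which stabilises mitochondrial messenger RNA (-1.46), TFB2M, a mitochondrial transcription factor (-1.52), and PPRC1, a coactivator (-1.81). TFB1M, an rRNA methyltransferase, was the 1 called higher (1.14). Of 46 assembly factors, COA1 was called higher (1.25) and COX15, ACAD9 and LYRM7 lower (-1.01, -1.73 and -1.09; list median -0.04), shares near or below those of all genes, and of 17 genes for electron carriers and coenzyme Q synthesis, 0 were called (median -0.06).

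**Figure D5:**
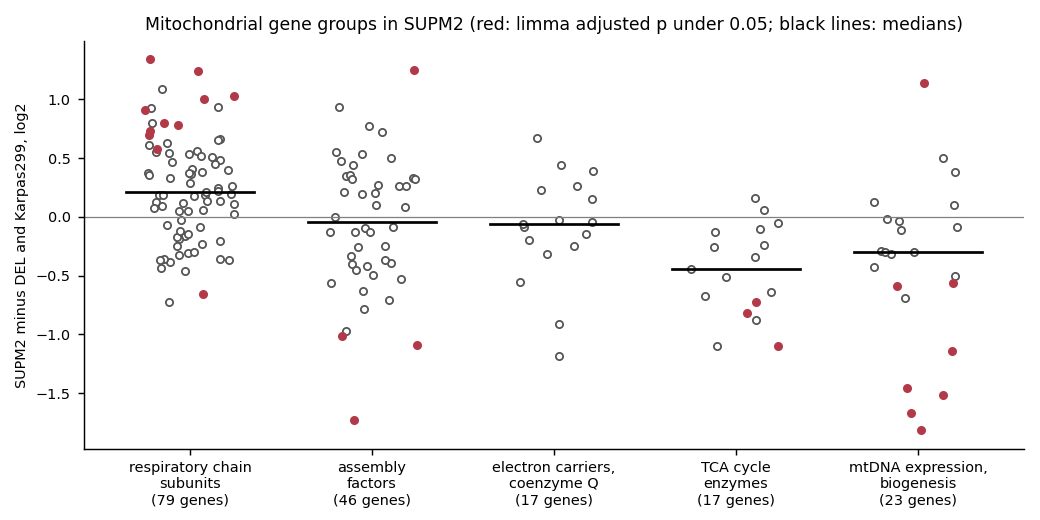
SUPM2 minus the mean of DEL and Karpas299 in log2 (y axis) for genes of 5 mitochondrial groups (x axis), red where the limma adjusted p was under 0.05, with black lines at the medians. The medians are 0.21 for the respiratory chain subunits, -0.04 for assembly factors, -0.06 for carriers and coenzyme Q, -0.44 for TCA cycle enzymes and -0.30 for genome expression and biogenesis.

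Karpas299 and DEL were each set against the mean of the remaining lines without SUDHL-1. A direct difference between Karpas299 and DEL was not tested. In Karpas299, set against DEL and SUPM2, 2 genes were called higher (4.18% of all genes) and 2 lower (3.52%), with a median of -0.08 against -0.01 over all genes. UQCRC2 had 10.48 and 10.58 on the SP and MP arrays of Karpas299, against 9.34 and 9.29 in DEL and 9.70 and 9.39 in SUPM2 (log2 1.10, SE 0.15, limma adjusted p = 0.0013), and it was called in 12 of 12 alternatives. COX6B2 had 5.37 and 5.96 in Karpas299, against 3.76 and 3.93 in DEL and 4.41 and 4.37 in SUPM2 (log2 1.55, SE 0.26, limma adjusted p = 0.0048). COX7C (-0.68) and COX7A1 (-0.70) were called lower. Of the other mitochondrial lists, IDH2, a TCA cycle enzyme, and MTERF4, of mitochondrial ribosome assembly, were called higher in Karpas299 and 0 genes lower. B-cell markers lay higher in Karpas299 for 4 of 5 genes, with PAX5 called, and their part was not tested.

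In DEL, set against Karpas299 and SUPM2, 0 genes were called higher (3.48% of all genes) and 3 lower (2.03%), with a median of -0.16 and 22 of 79 above 0 (-0.06 and 41.4% over all genes). In complex IV, 16 of 17 genes lay below 0. The 3 called were UQCRC2 (-0.72, SE 0.15), COX6B2 (-1.18, SE 0.26) and NDUFS7 (-1.0, SE 0.23), an iron-sulfur subunit of complex I with 7.05 and 6.99 on the SP and MP arrays of DEL, against 7.83 and 7.66 in Karpas299 and 8.17 and 8.42 in SUPM2. The contrasts of these 3 lines share arrays, so a gene that is high in 1 line is counted again where that line is part of the comparison. Leaving out 1 array at a time left 0 to 3 genes called lower in DEL and 0 to 2 in Karpas299, with none of the 3 in DEL called without its SP array, without its MP array or without the Karpas299 MP array.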

How the data were processed

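SP and MP cells of 4 ALCL lines were measured on 12 arrays. Per the labels' protocols, RNA was amplified with NuGEN Ovation Pico kits and labelled with biotin for Affymetrix arrays. Each deposited value is a log2 signal per probe set. Per the submitters' processing notes, RMA was the authors' tool. No source used here states whether all arrays were normalized in 1 run. All 12 value columns were used as deposited.

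Of 33297 probe sets, 19460 had 1 gene symbol in the platform annotation, 1754 several and 12083 none; 19429 matched RefSeq (GRCh38.p14) and 0 symbols needed updating. The probe set with the highest mean stood for a gene, giving 18417 genes; 7 of the 79 genes had several. Several subunit genes have processed pseudogenes, and a probe set may share their signal.

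Tests used limma 3.58.1 (lmFit, eBayes; R 4.3.3) with two-sided p-values adjusted by Benjamini-Hochberg over all genes at 0.05: SP minus MP in SUDHL-1 (6 arrays), over 4 lines (1 difference per line), their interaction, and line contrasts from 1 fit of line and population. Fits were tested on simulated data. Differences at 1 array a group have no test, and 2-fold was the mark used. The main fit did not use SUDHL-1 replicate numbers as pairs. Deviations of same-numbered arrays from their group means correlated at -0.00374, -0.0774 and -0.132. Deviations within a group cancel out, so these values cannot show whether same-numbered arrays share a sort. Genes named were up to 8 per direction past the threshold by p, or the 5 of smallest p, with isoforms and complex II always and up to 4 of smallest p from each other list; the 12 genes lower in 4 lines, and NDUFB4, NDUFV3, CYC1, UQCRB, UQCRH and UQCRQ in the SUDHL-1 contrast, were named after their values were seen, as members of a count. The genes and lists were chosen with earlier results of these data known. Alternatives changed the scaling, the filter on dim genes, the probe set rule, the variance model, the samples and the block.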

Additional observations from a re-analysis of the deposited data

How the results depend on the processing

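The 0 calls for SP minus MP held in SUDHL-1, over the 4 lines and in their interaction under each alternative run. These included a replicate block (0 genes of the set called), though the labels do not say whether same-numbered arrays share a sort. Leaving out 1 array or line at a time, the median of the 79 genes ran from -0.19 to 0.09 in SUDHL-1, from -0.09 to 0.01 over the 4 lines and from -0.17 to 0.12 in the interaction, and the counts called were 0 to 0. Without both SUDHL-1 arrays numbered 3 the SUDHL-1 median was -0.23. The count lower in SP in 4 of 4 lines ran from 5 to 15 and the count higher from 0 to 2, an alternative chosen after seeing the data.

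For SUDHL-1 against the other lines, centring gave 37 higher, 14 lower and a median of 0.41, and turned COX4I2 to 0.013; leaving out 1 array gave 22 to 24 higher, 22 to 29 lower and medians of -0.13 to -0.01. In DEL a robust trended variance called 1 higher and the 6 arrays of the 3 lines alone called 1 lower; leaving out 1 array gave 0 to 0 higher, 0 to 3 lower and medians of -0.20 to -0.10. In Karpas299, 1 was called higher without the lowest 25% of mean signal, and 4, 1, 4 and 0 were called lower after quantile normalization, centring, robust trended variance and with the 6 arrays alone; leaving out 1 array gave 1 to 3 higher, 0 to 2 lower and medians of -0.14 to -0.00. In SUPM2 the 6 arrays alone called 5 higher and 0 lower, and quantile normalization and centring called 0 lower; leaving out 1 array gave 3 to 6 higher, 0 to 0 lower and medians of 0.09 to 0.29. Apart from the fewer samples, the cause was not tested. With 2 arrays a line, leaving 1 out assumes that the lone array varies like the other lines.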
